A study of Mus musculus with 11 samples.

Results

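The genes described here encode proteins that carry out or steer the splicing of messenger RNA precursors. They were chosen by name alone, as every gene whose symbol starts with Srsf, Hnrnp, Snrp, Sf3a, Sf3b, Prpf or U2af. The symbol was that of RefSeq where the gene number of a probe matched, and that of the platform otherwise. Among the 7114 named genes, 52 met this rule, read by 81 probes. They comprise 9 snRNP proteins, 8 subunits of splicing factor 3, 9 Prpf proteins, 8 SR proteins, 17 hnRNP proteins and 1 relative of the U2af small subunit (U2af1l4). A value was present for all 52 genes on all 11 arrays, so none was lost to a filter.

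Splicing removes introns and joins exons. The work is done by the spliceosome, a set of small nuclear RNAs each held in a protein particle (snRNP), with a ring of Sm proteins at its core. SR proteins bind exons and usually favour their inclusion, while hnRNP proteins coat nascent transcripts and often favour skipping. Both classes are abundant nuclear RNA-binding proteins found in nearly all cells, and their relative amounts help set which splice forms a cell makes.

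The series compared RNA from mouse cell lines and organs on 2-colour cDNA arrays, 1 array per sample, under a title about the oncogenic potential of RAS isoforms in melanocytes, the pigment cells. The own RNA of each sample carried Cy3 and a mouse embryo RNA, common to all arrays, carried Cy5. The arrays are NRAS_MEL and HRAS_MEL, named for RAS isoforms, D6_MEL, VA_MEF, 3T3, VA_475, Kidney, Liver, Lung, Heart and Melan A. The labels give no treatment, strain, age, passage or count of animals, and they do not say how RAS differs between the cells. D6_MEL and NRAS_MEL share the description code C3, the second with the word Nras added, so they may be related. MEL is taken to stand for melanocyte, after the series title, and MEF and 3T3 are common names of fibroblast cultures. No class is given for VA_475. Each array had 15170 to 15210 values. With 1 array per sample the number of arrays limits the precision, and signal over background was not analysed here.

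All values below are log2 ratios of own RNA over embryo RNA, after centring each array on its median over all probes. A value of 0 means the same share as in the embryo reference relative to the typical probe, and it ranks arrays within a gene rather than genes against each other. The base 2 is assumed, and the direction is likely but not stated. It was taken from organ marker lists. For each of the 4 lists the array that stood farthest from the others was low as deposited, at -7.63 from the list's median in the liver list, -7.46 in the lung list, -4.55 in the heart list and -4.20 in the kidney list. Such markers are high in their own organ, so the sign of every value was turned. The titles name the sample ahead of the reference, and if that order describes the table, all signs given here reverse.

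Several labels went against their markers. Of the 4 measured genes of the liver list, the median was highest in the array labelled Lung (2.21) and stood at -4.84 in the array labelled Liver. The only measured gene of the lung list, Sftpd, was highest in the array labelled Liver (5.75), against -1.25 in the array labelled Lung. For the 2 measured heart genes the highest array was that labelled Melan A (3.77), while the one labelled Heart stood at -0.96. The 4 kidney genes peaked under their own label (4.08). Of 15 melanocyte genes written, 3 were measured, and their median was highest in VA_MEF (3.06). It was only 0.04, -0.82 and 0.06 in NRAS_MEL, HRAS_MEL and D6_MEL, 0.31 under the label Heart and -0.61 under the label Melan A. Mlph stood at 2.55, 2.36 and 3.18 in NRAS_MEL, HRAS_MEL and D6_MEL, at 2.94 under the label Heart and at -0.06 under the label Melan A. The other measured genes did not follow it. Rab38 stood at 0.04, -0.99 and 0.06 in these MEL arrays and 0.31 under the label Heart. Rab27a stood at -0.50, -0.82 and -0.59 in them and -0.72 under the label Heart. Of 12 fibroblast genes written, 7 were measured, with a median of -2.49 in VA_MEF and -0.79 in 3T3. That median was -2.90, -3.04 and -2.82 in NRAS_MEL, HRAS_MEL and D6_MEL, so these markers did not bear out the name VA_MEF. All arrays are called by their labels, and those labelled Heart and Melan A stay out of the main test of lines against organs. Which organ an array labelled Liver or Lung held does not enter that test, since both are organs by marker and by label.

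Across the 11 arrays the families took different levels against the embryo reference. The hnRNP family had a median below 0 on every array, between -0.72 (labelled Lung) and -0.15 (3T3). The SR family did as well, between -0.70 (NRAS_MEL) and -0.06 (VA_475); with the median of a gene's probes in place of the mean, its highest array median was 0.0065 and 10 of 11 arrays stayed below 0. Prpf medians stayed within -0.10 and 0.10. The snRNP proteins covered the widest span of the families with several genes, with medians of -0.72 in Kidney and -0.69 in the array labelled Lung, and of 0.54 in 3T3 and 0.74 in VA_475. Their median in D6_MEL (-0.11) lay below that in the array labelled Liver (-0.09), so lines and organs overlapped. These medians kept their signs without centring and after quantile normalization.

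**Figure D1:**
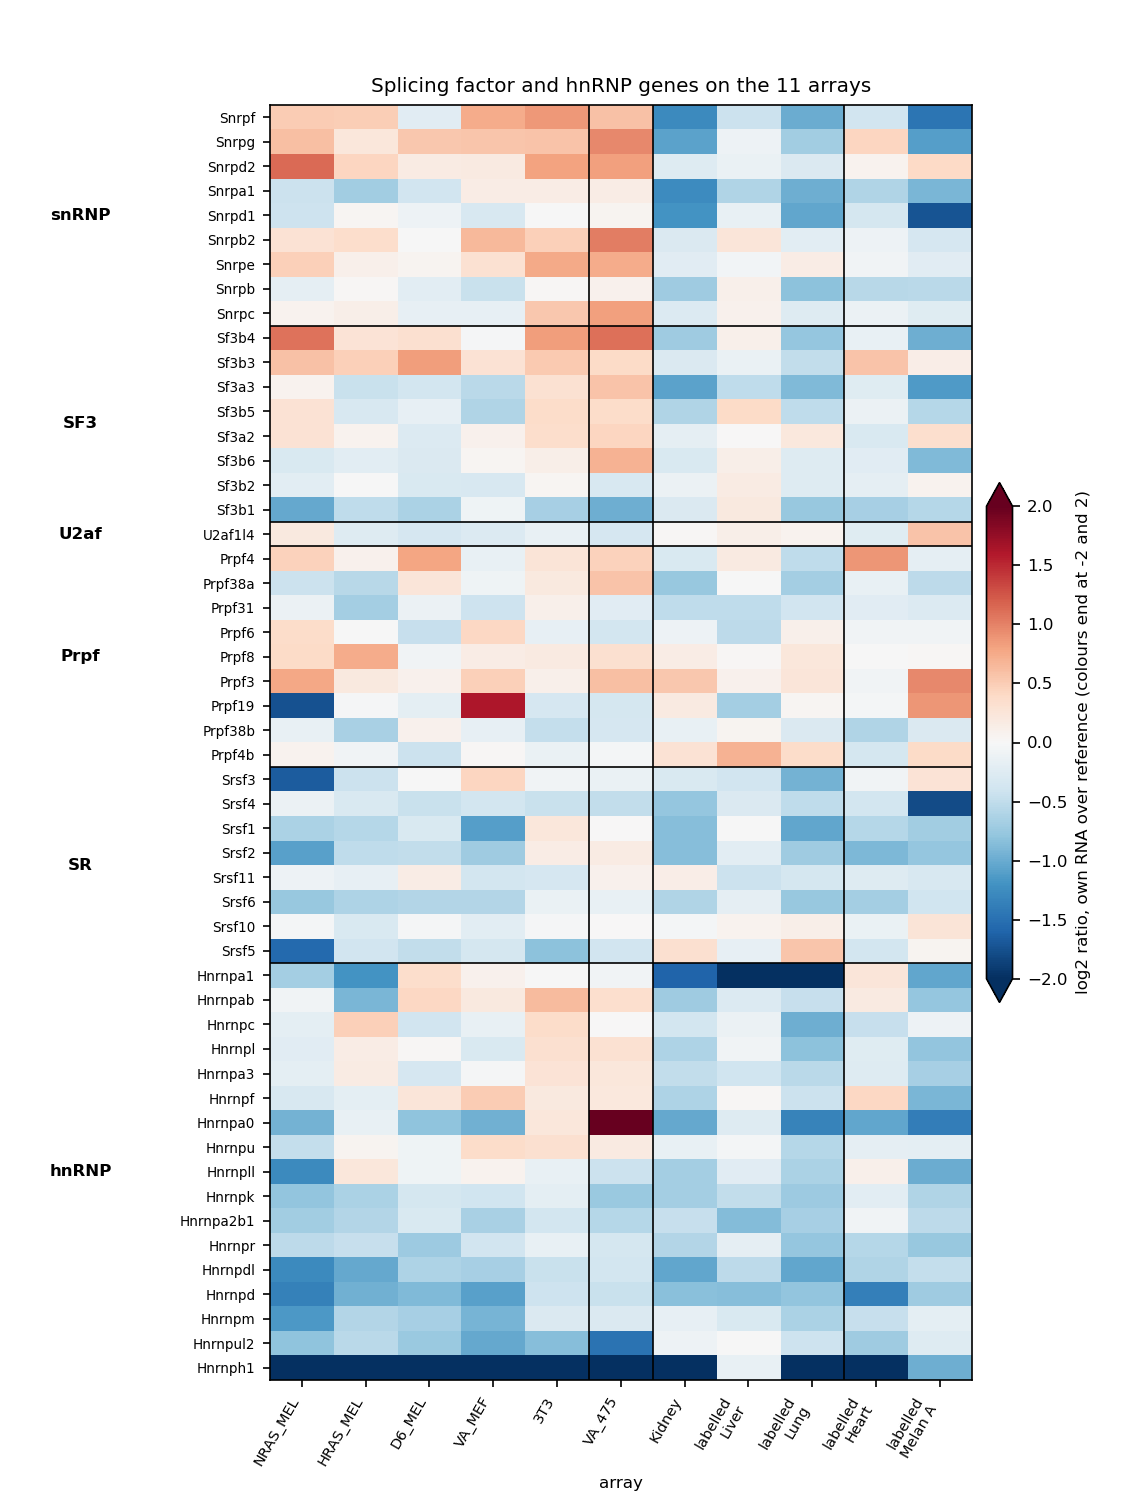
Log2 ratio of own RNA over embryo reference for the 52 genes (rows, by family) on the 11 arrays (columns), with colours ending at -2 and 2. The snRNP rows at the top are mostly red in the lines other than D6_MEL, where 6 of 9 are below 0. They are mostly blue in Kidney and the array labelled Lung. The hnRNP rows at the bottom are mostly blue throughout, and Hnrnph1 is far below 0 except in the arrays labelled Liver and Melan A.

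The spread of a gene over the 11 arrays was mostly small. Of the 52 genes, 38 (73.1%) had an SD below the median SD of all genes, 0.476, and their own median SD was 0.40. Srsf10, an SR-like repressor of splicing, varied least, with an SD of 0.15 and values from -0.31 to 0.25. Sf3b2 (SD 0.17), Srsf11 (0.21), Hnrnpk (0.21) and Hnrnpa2b1 (0.22) followed. Apart from Hnrnpk, read by 1 probe, these values are means of probes that differed by more than the SD. The median range between probes was 0.65 for Srsf10, 0.55 for Sf3b2, 0.70 for Srsf11 and 0.42 for Hnrnpa2b1. A small SD of the mean therefore does not show that each probe was steady. Hnrnpk, which binds C-rich RNA, lay between -0.79 and -0.19 on all 11 arrays, and Hnrnpa2b1, a close relative of Hnrnpa1, between -0.86 and -0.08. The largest spreads were those of Hnrnph1 (SD 2.19), Hnrnpa0 (1.06), Hnrnpa1 (0.94), Prpf19 (0.85) and Snrpf (0.84). Prpf19, a ubiquitin ligase that helps activate the assembled spliceosome, owed its spread to NRAS_MEL, at -1.75, and VA_MEF, at 1.61, while its other 9 arrays lay between -0.68 and 0.89.

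The cell lines were next compared with the organs, with 5 lines (NRAS_MEL, HRAS_MEL, D6_MEL, VA_MEF and 3T3) against 3 organ arrays (Kidney and those labelled Liver and Lung). Sm core proteins Snrpf and Snrpg, the splicing factor 3b subunit Sf3b3 and the exon-silencing protein Hnrnpa1 were higher in the lines, by 1.79-fold to 3.18-fold. Hnrnph1, which binds runs of G, was 10.7-fold lower in the lines on its single probe, and what that probe detects was not tested. The other 47 genes did not pass the limma threshold of adjusted p 0.05, with Benjamini-Hochberg adjustment over the 7089 genes tested. Of all genes tested, 2.84% were called higher and 3.7% lower in the lines (6.53% in either direction), beside 4 of the 52 genes (7.69%) higher and 1 (1.92%) lower; the difference between these shares was not tested. The median difference of the 52 genes was 0.19, with 40 above 0 and 12 below, against a median of -0.03 over all genes. At an unadjusted p under 0.05 there were 14 of the 52 genes, and 1940 (27.4%) of all genes. Lines and organs stand in for replicates here, and whether cultures or animals were separate is not in the labels, so p-values measure the spread between these arrays.

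The calls depended on which arrays entered. Without 3T3, NRAS_MEL or Kidney, limma called 0 of the 52 genes, with 10, 14 and 9 at an unadjusted p under 0.05. Over all genes these fits called 60 higher and 96 lower of 7076, 87 and 106 of 7080, and 53 and 139 of 7073. At an unadjusted p under 0.05 they had 1585, 1729 and 1423 of all genes. Only Sf3b3 passed without VA_MEF, only Snrpf without D6_MEL, only Hnrnph1 without the array labelled Lung, and Hnrnpa1 and Snrpg without HRAS_MEL. Of all genes, 180 were called higher and 184 lower without VA_MEF, and 96 and 119 without D6_MEL. The counts were 74 and 179 without the array labelled Lung, and 143 and 182 without HRAS_MEL. Without the array labelled Liver, 7 of the 52 genes passed, beside 385 higher and 601 lower of the 7075 genes tested. With D6_MEL and NRAS_MEL averaged as 1 line, only Snrpf passed, beside 125 higher and 129 lower of the 7086 genes tested. With Heart and Melan A entered as labelled, limma called 0 of the 52 genes and 0 of 7100 genes, with 2 and 589 at an unadjusted p under 0.05. The 5 differences kept their direction in each of these fits.

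The lines and organs also differed in other genes. Of the 22 genes written for a proliferation list 20 were measured, and 14 were called higher in the lines, with medians of -0.48 to 0.27 in the lines and -1.81 to -1.42 in the organs. Marker lists of other cell types that organs hold had lower medians in the lines. Endothelial genes (4 of 9 measured, 2 called lower) had medians of -2.01 to -1.05 in the lines and -0.68 to 2.0 in the organs. Erythroid genes (4 of 8 measured, 2 called lower) had medians of -4.28 to -2.95 in the lines and -2.14 to -0.55 in the organs. Leukocyte genes (2 of 10 measured, 1 called lower) had medians of -3.20 to -1.68 in the lines and -1.14 to 4.04 in the organs. The part of these in the results below was not tested, and in bulk RNA fewer cells of a type and less RNA per cell cannot be told apart.

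All 9 snRNP proteins had a higher mean in the lines than in the organs, with a median difference of 0.63, and 2 of them passed the threshold. Snrpf stood at 0.51 in NRAS_MEL, 0.49 in HRAS_MEL, -0.22 in D6_MEL, 0.74 in VA_MEF and 0.87 in 3T3, against -1.27 in Kidney, -0.43 in the array labelled Liver and -0.99 in the array labelled Lung. Every line lay above every organ, with D6_MEL the lowest line. The means were 0.48 ± 0.42 in lines and -0.90 ± 0.43 in organs (SD, n = 5 and 3), a difference of 1.38 (SE 0.30, limma adjusted p 0.0312). Snrpf was also low under the label Melan A, at -1.47.

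Snrpg, another protein of the Sm ring, stood at 0.61 in NRAS_MEL, 0.23 in HRAS_MEL, 0.53 in D6_MEL, 0.56 in VA_MEF and 0.56 in 3T3, against -1.07 in Kidney, -0.09 in the array labelled Liver and -0.69 in the array labelled Lung. The lines were close together apart from HRAS_MEL, the organs were spread, and the groups did not overlap. The difference was 1.11 (SE 0.24, limma adjusted p 0.0312), with means of 0.50 ± 0.15 in lines and -0.62 ± 0.49 in organs (SD, n = 5 and 3).

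The other 7 snRNP proteins had differences of 0.23 (Snrpc, of the U1 particle) to 0.77 (Snrpd2, an Sm protein), none past the threshold. Snrpd2 stood at 1.14 in NRAS_MEL, 0.43 in HRAS_MEL, 0.17 in D6_MEL, 0.17 in VA_MEF and 0.80 in 3T3, against -0.26 in Kidney, -0.13 in the array labelled Liver and -0.29 in the array labelled Lung. Its groups did not overlap, but its limma adjusted p was 0.100 (SE 0.26). Snrpa1, a protein of the U2 particle, differed by 0.71 (SE 0.26, limma adjusted p 0.130) and Snrpd1, another Sm protein, by 0.63 (SE 0.27, limma adjusted p 0.170). In both genes the array labelled Liver lay within the range of the lines.

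**Figure D2:**
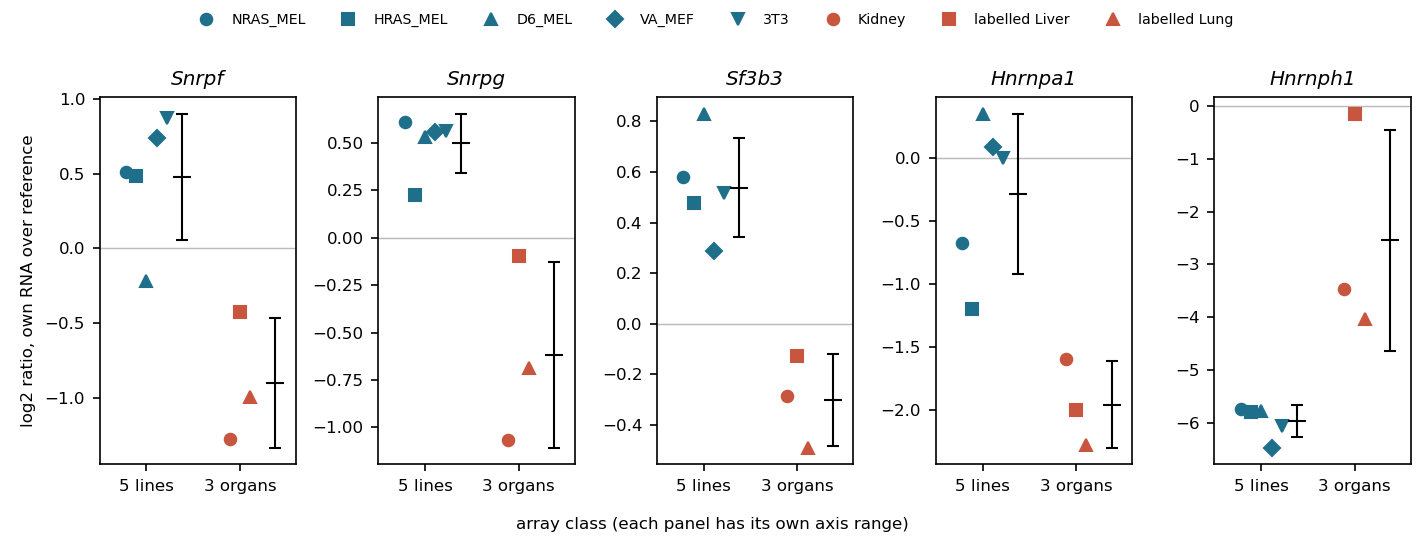
Log2 ratio of own RNA over embryo reference for the 5 genes past the limma threshold, in the 5 lines (left of each panel) and the 3 organs (right), 1 symbol per array, with the mean and SD beside each group and an axis range per panel. In the panels of Snrpf, Snrpg, Sf3b3 and Hnrnpa1 every line lies above every organ, and in that of Hnrnph1 every line lies below, with the array labelled Liver far above the other 2 organs.

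Splicing factor 3 forms part of the U2 particle and holds it at the branch site of the intron. Of its 8 measured subunits 1 was called higher in the lines and 0 lower, and the median difference was 0.12. Sf3b3, a large scaffold subunit read by 2 probes, stood at 0.58 in NRAS_MEL, 0.48 in HRAS_MEL, 0.83 in D6_MEL, 0.29 in VA_MEF and 0.52 in 3T3, against -0.29 in Kidney, -0.13 in the array labelled Liver and -0.49 in the array labelled Lung. On the mean of the 2 probes all lines were above 0 and all 3 organs below it. On 1 probe alone VA_MEF stood at -0.02. On the other Kidney stood at 0.24 and the array labelled Liver at 0.43. The difference was 0.84 (SE 0.19, limma adjusted p 0.0378), with means of 0.54 ± 0.20 in lines and -0.30 ± 0.18 in organs (SD, n = 5 and 3). Its probes gave differences of 1.13 and 0.55 when taken alone.

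Sf3b4, an RNA-binding subunit near the branch site, had a difference of 0.97 (SE 0.32, limma adjusted p 0.0938). It stood at 1.09 in NRAS_MEL, 0.27 in HRAS_MEL, 0.33 in D6_MEL, -0.02 in VA_MEF and 0.84 in 3T3, against -0.71 in Kidney, 0.10 in the array labelled Liver and -0.78 in the array labelled Lung. VA_MEF lay below the array labelled Liver, so the groups overlapped. Sf3a3 of the 3a part differed by 0.63 (SE 0.26, limma adjusted p 0.152). Sf3b1, the largest subunit and the one that clamps the branch site, leaned the other way, at -0.30 (SE 0.28, limma adjusted p 0.538), with values of -1.03 in NRAS_MEL and -0.08 in VA_MEF as the ends of the lines.

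U2af1l4, a paralogue of the small U2af subunit that reads the end of the intron, differed by -0.23 (SE 0.19, limma adjusted p 0.467). Its highest value over the 11 arrays, 0.57, was in the array labelled Melan A. The main U2af subunits were not among the genes analysed here.

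None of the 9 Prpf genes passed the limma threshold, and 1 had an unadjusted p under 0.05. These proteins include parts of the U4/U6 particle (Prpf3, Prpf4, Prpf31), parts of the U5 particle (Prpf6, Prpf8) and factors that join later. The smallest p belonged to Prpf4b, a kinase that acts on the spliceosome, with a difference of -0.56 (SE 0.20, limma adjusted p 0.114). It stood at 0.07 in NRAS_MEL, -0.07 in HRAS_MEL, -0.43 in D6_MEL, 0.03 in VA_MEF and -0.13 in 3T3, against 0.28 in Kidney, 0.69 in the array labelled Liver and 0.37 in the array labelled Lung. Every line lay below every organ. Prpf4 came next, at 0.50 (SE 0.26, limma adjusted p 0.258), and its highest values were 0.88, under the label Heart, and 0.80, in D6_MEL. Prpf8, the core protein around which the catalytic RNAs fold, ranged only from -0.07 to 0.74 over the 11 arrays.

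No SR protein passed either. The 8 genes had a median difference of 0.06, with 5 above 0 and 3 below. Srsf5 had the smallest p, with a difference of -0.96 (SE 0.32, limma adjusted p 0.0958). It stood at -1.55 in NRAS_MEL, -0.38 in HRAS_MEL, -0.49 in D6_MEL, -0.35 in VA_MEF and -0.82 in 3T3, against 0.32 in Kidney, -0.17 in the array labelled Liver and 0.55 in the array labelled Lung. The lines all lay below the organs, NRAS_MEL farthest. Srsf10 came next, at -0.18 (SE 0.17, limma adjusted p 0.556), and turned to 0.16 with 1 probe per gene. Srsf1 and Srsf2, the founding members of the family, had differences of 0.15 and 0.06 and limma adjusted p of 0.819 and 0.916.

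**Figure D3:**
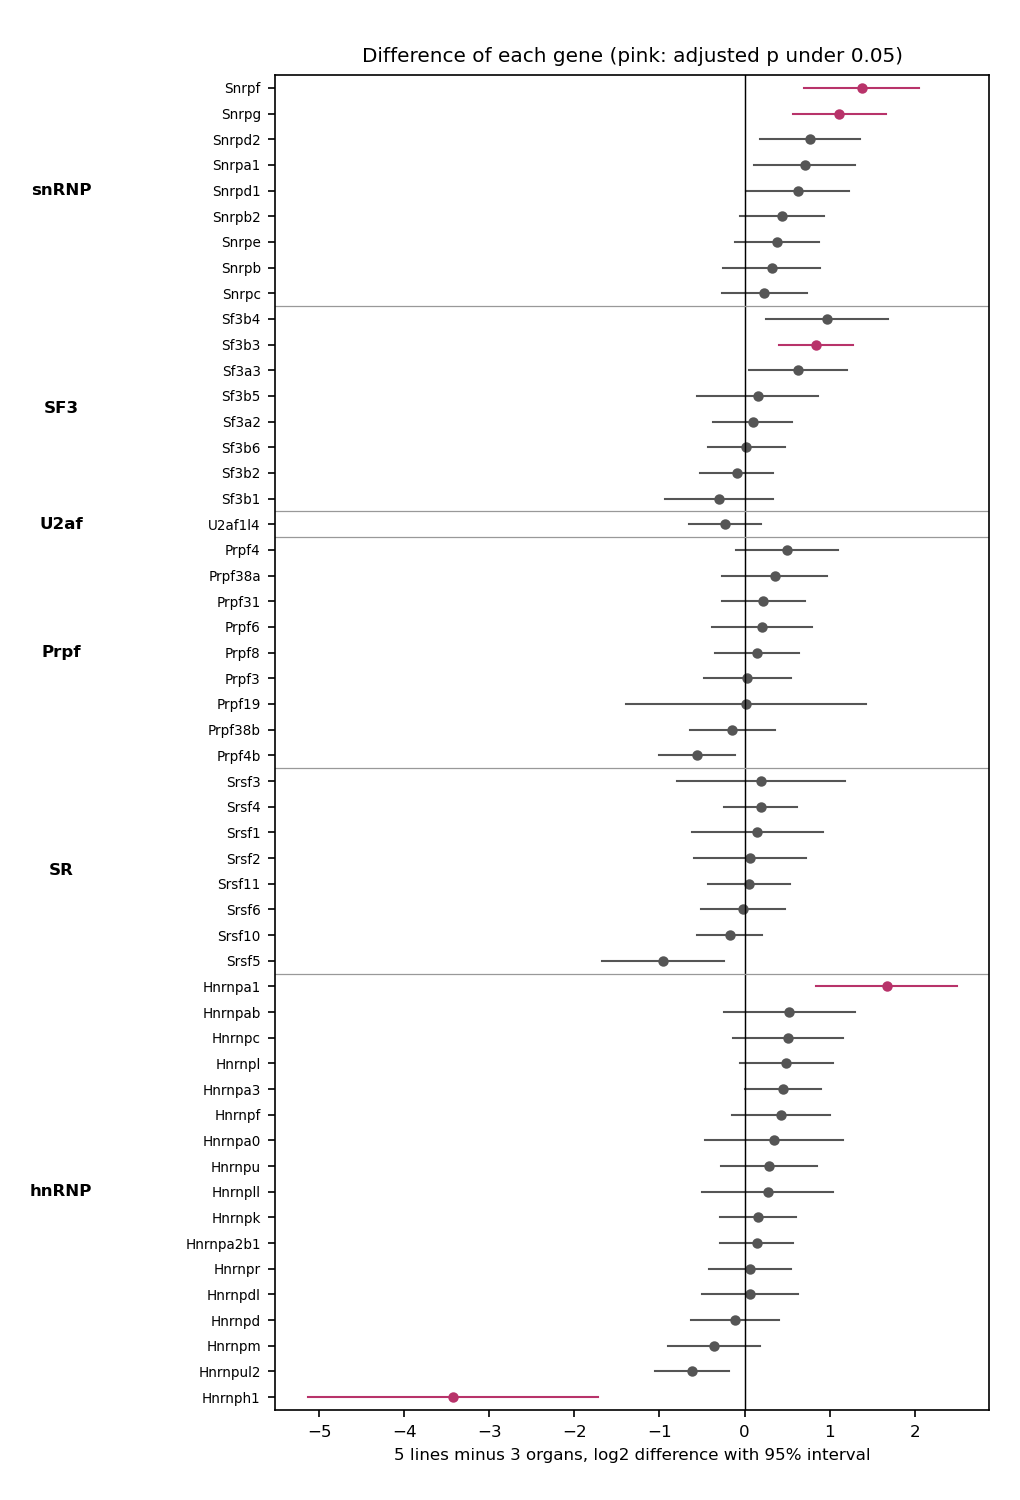
Difference between 5 lines and 3 organs on the log2 scale for each of the 52 genes, by family, as a point with its 95% interval from limma. Pink marks the 5 genes with an adjusted p under 0.05; all 9 snRNP points lie right of 0, and Hnrnph1 stands alone at -3.42.

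Among the 17 hnRNP proteins 1 was called higher in the lines, 1 was called lower, and 13 had a difference above 0, with a median of 0.27. Hnrnpa1, which binds silencer elements in exons and shuttles mRNA out of the nucleus, stood at -0.68 in NRAS_MEL, -1.20 in HRAS_MEL, 0.35 in D6_MEL, 0.09 in VA_MEF and -0.00 in 3T3, against -1.60 in Kidney, -2.0 in the array labelled Liver and -2.28 in the array labelled Lung. HRAS_MEL and NRAS_MEL were the lowest lines, and all organs were lower still. The means were -0.29 ± 0.63 in lines and -1.96 ± 0.34 in organs (SD, n = 5 and 3), a difference of 1.67 (SE 0.37, limma adjusted p 0.0321). Each of its 3 probes gave a difference between 1.37 and 1.93. A cDNA probe can also bind transcripts of close relatives and of pseudogenes, which could not be told apart here.

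Its relative Hnrnpa3, read by 5 probes, had no overlap between the groups either, but a difference of only 0.45 (SE 0.20, limma adjusted p 0.179). Hnrnpul2, a relative of the nuclear scaffold protein Hnrnpu, stood at -0.81 in NRAS_MEL, -0.54 in HRAS_MEL, -0.74 in D6_MEL, -1.02 in VA_MEF and -0.86 in 3T3, against -0.11 in Kidney, -0.01 in the array labelled Liver and -0.41 in the array labelled Lung. It was lower in every line than in every organ, by -0.62 (SE 0.19, limma adjusted p 0.0820), and missed the threshold. The remaining hnRNP genes had limma adjusted p of 0.223 or more. Over the 52 genes, 6 had every line above every organ, as had 8.89% of all genes, and 4 had every line below every organ, as had 10.2% of all genes.

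Hnrnph1 had the largest SD over the 11 arrays, as given above. Its single probe stood at -5.73 in NRAS_MEL, -5.80 in HRAS_MEL, -5.79 in D6_MEL, -6.47 in VA_MEF and -6.06 in 3T3, against -3.46 in Kidney, -0.15 in the array labelled Liver and -4.03 in the array labelled Lung. The lines lay close together and the organs did not. The means were -5.97 ± 0.31 in lines and -2.54 ± 2.10 in organs (SD, n = 5 and 3), a difference of -3.42 (SE 0.75, limma adjusted p 0.0324). Without the array labelled Liver the difference was -2.23, and after quantile normalization, at -2.64, it no longer passed (limma adjusted p 0.0908). VA_475 stood at -6.00 and the array labelled Heart at -5.81, beside the lines, while the array labelled Melan A stood at -0.98.

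The 5 genes whose pattern over the 11 arrays was most like that of Hnrnph1 were Pecam1, Cadps2, Ighm, Maml1 and Cebpg, with Pearson r of 0.982 to 0.992 across arrays that share 1 reference RNA, given as a description. Pecam1 marks endothelial cells and Ighm is the heavy chain of IgM in B cells. Hbb-b1, the adult haemoglobin beta chain, had an r of 0.976 and Alas2, an enzyme of haem synthesis in red cell precursors, one of 0.978. Hbb-b1 stood between -8.73 and -7.62 in the 5 lines, and at -2.30 in Kidney, 0.24 in the array labelled Liver and -3.65 in the array labelled Lung. The order of Hbb-b1 over these 3 organ arrays was the same as that of Hnrnph1. That of Alas2 was not, at -3.27 in Kidney, -0.33 in the array labelled Liver and -2.75 in the array labelled Lung. The other erythroid genes measured did not follow, with r of -0.25 for Slc4a1 and 0.31 for Hba-x. What the Hnrnph1 probe detects was not tested.

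**Figure D4:**
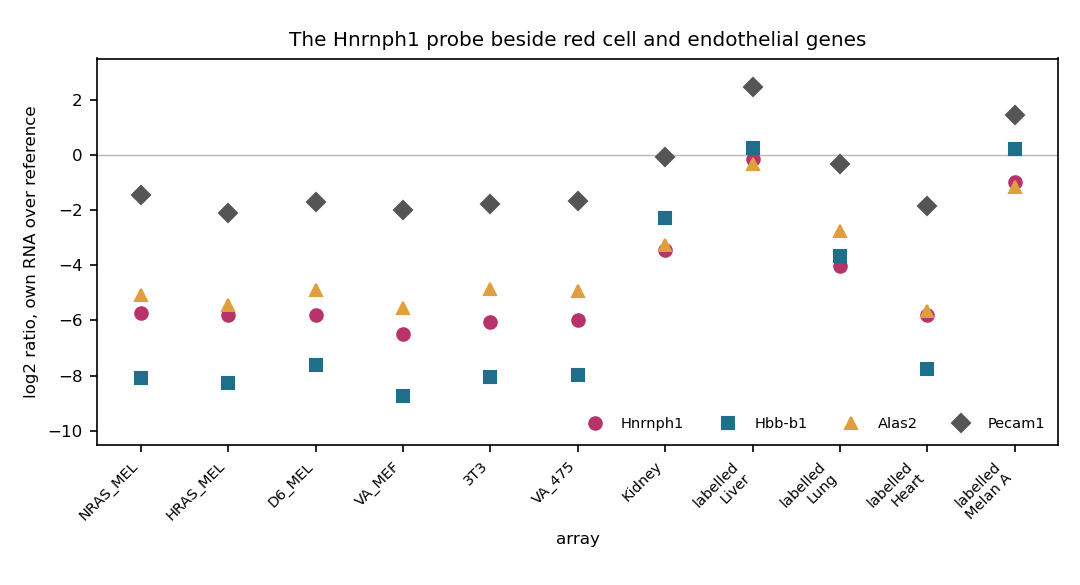
Log2 ratio of own RNA over embryo reference for Hnrnph1, the red cell genes Hbb-b1 and Alas2 and the endothelial gene Pecam1 on each of the 11 arrays. All 4 genes are lowest in the 5 lines, VA_475 and the array labelled Heart, and highest in the arrays labelled Liver and Melan A.

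Upstream sequence is shown for the 4 genes called higher in the lines, as the genes that share this call; they did not move alike within the lines, where D6_MEL was lowest for Snrpf and highest for Sf3b3 and Hnrnpa1. Each run below is the 250 bases before the annotated start from RefSeq (mouse build GRCm38.p6), 5′ to 3′ on the gene's own strand. Capitals mark CCAAT, the motif CGGAAG and the TATA motif TATAAA, each also where it reads on the other strand.
Snrpf, chr10:93589659-93589908, minus strand: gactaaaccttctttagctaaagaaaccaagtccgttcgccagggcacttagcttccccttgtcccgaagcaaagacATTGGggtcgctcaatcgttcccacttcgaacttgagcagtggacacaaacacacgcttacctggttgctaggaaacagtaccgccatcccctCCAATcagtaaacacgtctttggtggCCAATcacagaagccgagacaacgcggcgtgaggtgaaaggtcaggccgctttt
Snrpg, chr6:86371290-86371539, plus strand: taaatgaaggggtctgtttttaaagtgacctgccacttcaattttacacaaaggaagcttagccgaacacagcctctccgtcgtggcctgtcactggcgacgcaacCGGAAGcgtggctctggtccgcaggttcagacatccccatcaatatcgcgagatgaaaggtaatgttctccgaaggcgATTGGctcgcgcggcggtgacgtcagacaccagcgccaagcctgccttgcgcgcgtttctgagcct
Sf3b3, chr8:110846804-110847053, minus strand: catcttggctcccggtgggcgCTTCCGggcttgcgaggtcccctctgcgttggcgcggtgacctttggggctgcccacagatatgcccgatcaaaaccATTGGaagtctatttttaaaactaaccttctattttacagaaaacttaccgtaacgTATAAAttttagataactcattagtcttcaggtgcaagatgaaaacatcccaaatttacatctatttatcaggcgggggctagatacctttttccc
Hnrnpa1, chr15:103240147-103240396, plus strand: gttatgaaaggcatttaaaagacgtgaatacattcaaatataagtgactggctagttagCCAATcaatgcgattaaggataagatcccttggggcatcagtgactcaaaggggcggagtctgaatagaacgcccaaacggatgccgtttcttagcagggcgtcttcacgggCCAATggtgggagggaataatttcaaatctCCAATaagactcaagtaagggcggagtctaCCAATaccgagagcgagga

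CCAAT, the letters read by the factor NF-Y, occurred in all 4 runs. The window of Hnrnph1, the gene called lower in the lines, held CCAAT as well, so the string was not particular to the genes called higher. Snrpf held it on its own strand 80 and 54 bases before the start and on the other strand 173 bases before it. Hnrnpa1 held 4 copies, at 191, 79, 49 and 19 bases before the start. Snrpg and Sf3b3 held 1 copy each on the other strand, at 66 and 152 bases. CGGAAG, a core read by ETS factors, lay 144 bases before the start of Snrpg and 229 bases before that of Sf3b3.

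The same window was found for 46 of the 52 genes, with the first RefSeq entry taken for a gene that has several. CCAAT was present on either strand in 22 of them (47.8%), against 36.6% of the 5751 array genes with such a window. CGGAAG was present in 26 (56.5%), against 27.5%, and was spread unevenly: it occurred in 6 of 7 windows of snRNP genes, 6 of 6 of splicing factor 3 genes, 5 of 9 of Prpf genes, 3 of 8 of SR genes and 5 of 15 of hnRNP genes. CCGGAAG, which contains CGGAAG, was present in 15 (32.6%), against 15.2%. GGGCGG, the letters read by Sp1, was present in 27 (58.7%), against 60.7%. TATAAA was present in 4 (8.70%), against 6.56%. These strings were chosen after values were known, further strings were looked at and are not reported, and a match is a description of letters, not a site.

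The RAS-named arrays were set against D6_MEL, the MEL array with no RAS name, with 1 array each and no test. In NRAS_MEL, none of the 52 genes was 2-fold or more above D6_MEL (0) and 5 were 2-fold or more below it, where 2.46% of all genes were higher and 4.4% lower. The 5 were Srsf3 (-1.66), Prpf19 (-1.55), Hnrnpll (-1.18), Srsf5 (-1.06) and Hnrnpa1 (-1.02). Hnrnpa1 fell short of 2-fold with the median of its probes (-0.95) and with 1 probe per gene (-0.88). The count was 4 under either setting. With 1 probe per gene Srsf3 fell short as well, so the 4 there included a gene outside these 5. Srsf3, the smallest SR protein, stood at -1.67 in NRAS_MEL and -0.01 in D6_MEL, but its 3 probes differed, at -0.83, -1.78 and -2.39 in NRAS_MEL, and with 1 probe per gene the difference was -0.71. Hnrnpll, known for its role in splicing in activated lymphocytes, stood at -1.27 in NRAS_MEL and -0.09 in D6_MEL. The families leaned in different directions: 7 of 9 snRNP proteins were higher in NRAS_MEL, with a median of 0.24, and 7 of 8 SR proteins (median -0.29) and 13 of 17 hnRNP proteins (median -0.40) were lower. The highest differences were those of Snrpd2 (0.97), Prpf6 (0.82), Sf3b4 (0.76), Snrpf (0.73) and Prpf3 (0.69), all under 2-fold, although Snrpd2 passed 2-fold after quantile normalization, at 1.11. The median of all 52 genes was -0.06, against 0.02 over all genes.

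In HRAS_MEL, 0 genes were 2-fold or more above D6_MEL and 2 were below it by as much, where 5.23% of all genes were higher and 5.91% lower. These were Hnrnpa1 (-1.54) and Hnrnpab (-1.33), a relative of Hnrnpd that also acts in the cytoplasm. Hnrnpab stood at -0.92 in HRAS_MEL, its lowest array, and 0.41 in D6_MEL. For Hnrnpa1, 1 of the 3 probes carried much of the difference, at -2.42 in HRAS_MEL and 0.30 in D6_MEL, while the others stood at -0.52 and -0.65 in HRAS_MEL and 0.37 and 0.37 in D6_MEL; with 1 probe per gene it was -0.89. Prpf38a (-0.79), Prpf38b (-0.75) and Prpf4 (-0.71), proteins of the assembling spliceosome, followed. The highest were Hnrnpc (0.86), Prpf8 (0.81), Snrpf (0.71), Hnrnpa0 (0.65) and Hnrnpa3 (0.50). Hnrnpc, which coats U-rich tracts, rested on 1 of 4 probes, and its difference was 0.05 with 1 probe per gene. Both of these comparisons use the same D6_MEL array, so a shift in that array moves them together. Hnrnpa1 stood at -0.68 in NRAS_MEL and -1.20 in HRAS_MEL, against 0.35 in D6_MEL.

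**Figure D5:**
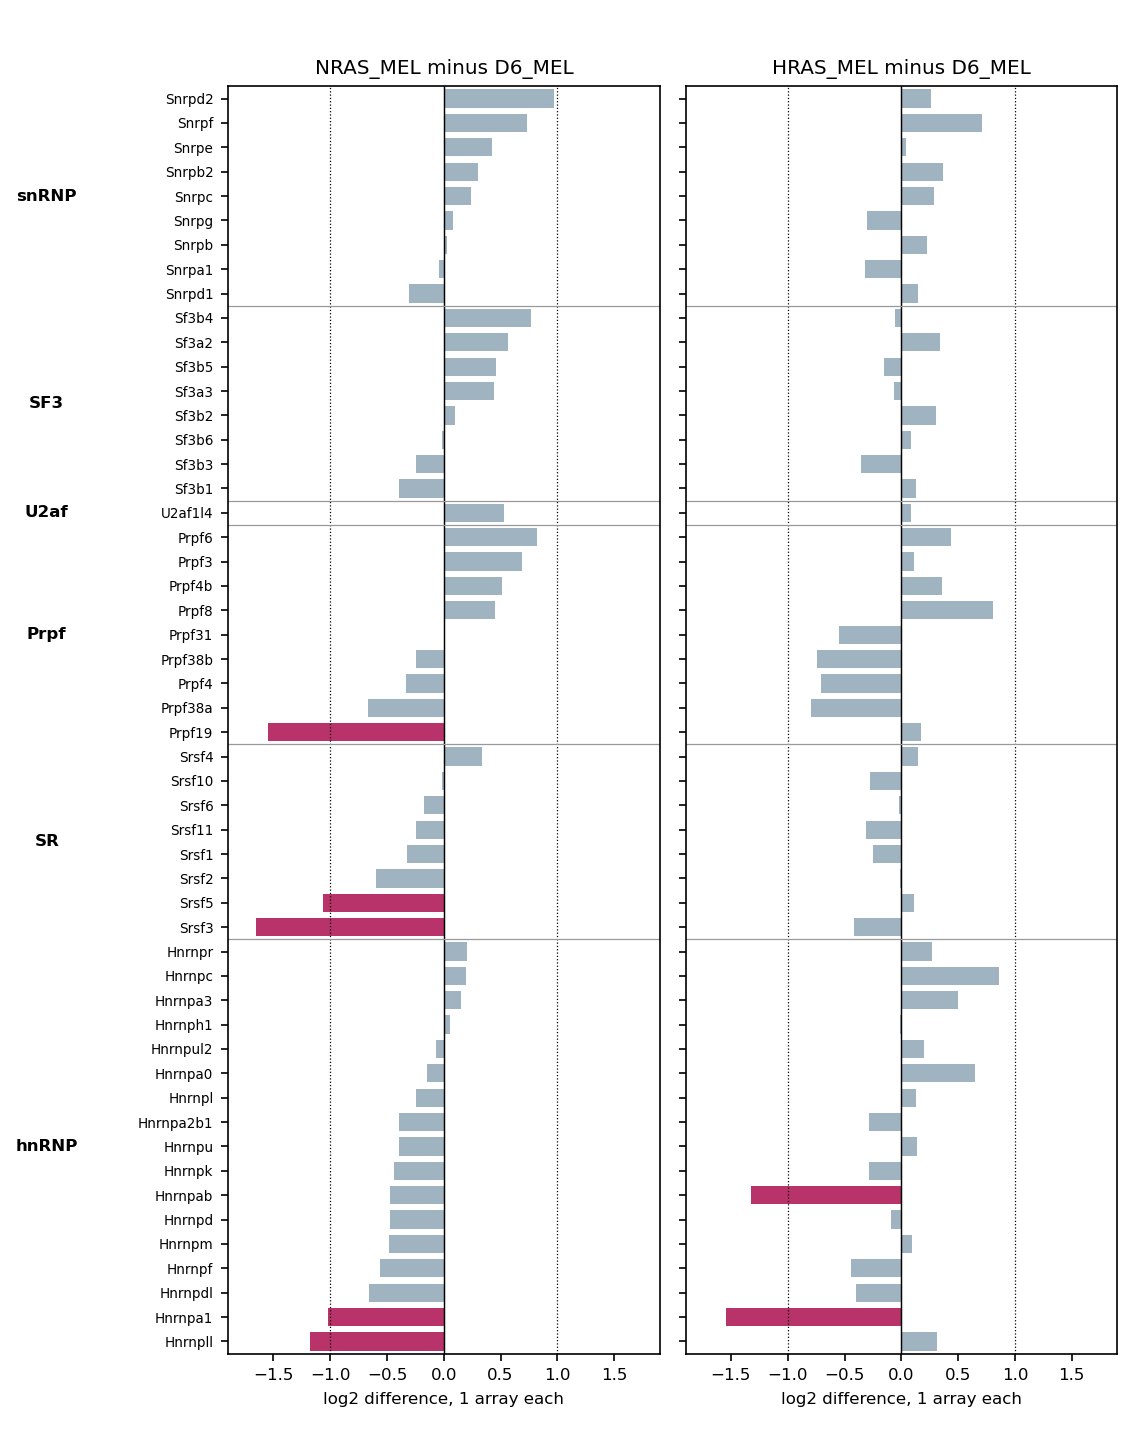
Log2 difference of NRAS_MEL (left) and HRAS_MEL (right) from D6_MEL for the 52 genes by family, 1 array each and no error, with dotted lines at 2-fold and pink bars past it. Srsf3, Prpf19, Hnrnpll, Srsf5 and Hnrnpa1 pass the line on the left and Hnrnpa1 and Hnrnpab on the right, all below 0.

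Set directly against each other, NRAS_MEL had 0 genes at least 2-fold higher and 4 lower than HRAS_MEL, where 4.27% of all genes were higher and 5.08% lower. The 4 were Prpf19 (-1.72), Hnrnpll (-1.49), Srsf3 (-1.24) and Srsf5 (-1.17), and Hnrnpa0 followed at -0.80. With 1 probe per gene Srsf3 differed by -0.22. The highest were Hnrnpab (0.85), Sf3b4 (0.82), Snrpd2 (0.70), Sf3b5 (0.61) and Prpf3 (0.57). In NRAS_MEL 14 of 17 hnRNP proteins were lower than in HRAS_MEL, with a median of -0.26, and 7 of 9 Prpf proteins were higher, with a median of 0.37. NRAS_MEL held the lowest value of the 11 arrays for 10 of the 52 genes and HRAS_MEL for 4. The array labelled Melan A held it for 12 and the array labelled Lung for 9, and shares over all genes are not given here. With 1 array each, none of these differences has an error or a replicate check.

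The arrays labelled Liver, Lung, Heart and Melan A, whose organ markers went against their labels, were also set beside the arrays they correlated with best. Over the 51 genes other than Hnrnph1, the array labelled Lung correlated with Kidney at a Pearson r of 0.842, the array labelled Heart with D6_MEL at 0.841, the array labelled Melan A with Kidney at 0.823 and the array labelled Liver with the array labelled Lung at 0.555, all across genes, which are not independent. Between the array labelled Heart and D6_MEL 0 of the 52 genes were 2-fold or more higher and 0 lower, where 0.862% of all genes were higher and 1.23% lower. Between the array labelled Melan A and Kidney 1 was higher, Hnrnph1 (2.48), and 1 lower, Srsf4 (-1.01), where 8.47% of all genes were higher and 9.58% lower. Srsf4, an SR protein, had a value of -1.79 under the label Melan A, its lowest array, and -0.78 in Kidney.

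How far probes of a gene agree bears on the small differences above. Of the 17 genes with several probes, all probes of 11 fell on the same side of 0 in lines against organs, and those of Prpf38b, Sf3b2, Snrpc, Srsf10, Srsf11 and Srsf3 fell on both sides. The range between the probes of a gene on an array had a median of 0.42, from 0.04 for Srsf2 to 1.30 for Hnrnpc. Differences smaller than that median were found for 28 of the 52 genes between NRAS_MEL and D6_MEL, 39 between HRAS_MEL and D6_MEL and 31 between NRAS_MEL and HRAS_MEL.

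Other splicing genes, from 6 lists of 177 genes by role, were compared in the same way, and 132 of them were measured and tested. In the lines 4 were called higher and 1 lower, where 2.84% of all genes tested were called higher and 3.7% lower. Of the 132, 88 had a difference above 0 and 44 below. The median was 0.19, against -0.03 over all genes. All 5 calls fell in 2 lists. Among 34 regulators and hnRNP-like proteins, Pcbp4, a C-rich RNA binder, differed by 2.22 and Rbm3, a cold-inducible RNA-binding protein, by 1.98. Raly, a relative of Hnrnpc, differed by -1.84. Among 21 genes of the exon junction, export and 3′ end machinery, the cleavage factors Cpsf2 and Nudt21 both differed by 0.89. The lists of U1, U5 and tri-snRNP proteins (18 measured), early complexes (21), catalytic complexes (19) and kinases and assembly factors (19) had 0 calls by limma. Of their 77 genes 13 had an unadjusted p under 0.05, where 27.4% of all genes tested did.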

How the data were processed

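The authors deposited 1 column of log ratios between the channels per array, read here as log2. No source used here gives the base, background correction or normalization. Deposited medians lay between -0.03 and 0.03. Of 15247 probes, 9600 have 1 gene symbol in the platform annotation. Of these, 9492 matched a RefSeq gene number and took the RefSeq symbol, and the others kept the platform symbol. Signs were turned, arrays centred on their median and probes averaged per gene with Python 3.11.15. Lines were tested against organs with limma 3.58.1 in R 4.3.3 (lmFit, eBayes, Benjamini-Hochberg, threshold 0.05), for genes with at least 3 line and 2 organ values; the code was tested on simulated data. Single arrays were compared by 2-fold counts. VA_475 entered no test. The genes, lists, left-out arrays and tests were chosen with earlier results of these data known. All 52 genes are described by family, and those given in detail follow a rule: all called genes, or the 2 smallest p in a family without calls; the 5 highest and lowest per single-array comparison; the 5 largest and smallest SDs; and called genes of the other lists. Outside this rule, Snrpd2, Snrpa1, Snrpd1, Snrpc, Sf3b4, Sf3a3, Sf3b1, Hnrnpa3, Hnrnpul2, Prpf8, Srsf1 and Srsf2 are named in the comparison of lines with organs, chosen after their values were seen.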

Additional observations from a re-analysis of the deposited data

Results flagged for a closer look

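In 3 of the 52 genes (5.77%) a single array stood apart from the other 4 of the 5 lines by Dixon's test, which flags about 1 in 20 groups by chance. Snrpg stood at 0.23 in HRAS_MEL, against 0.53 to 0.61 in the other lines. Srsf6, an SR protein, stood at -0.13 in 3T3, against -0.76 to -0.59 in the others. Hnrnpll stood at -1.27 in NRAS_MEL, against -0.15 to 0.22 in the others.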

How the results depend on the processing

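The count of 5 genes called by limma between lines and organs was 0 with Heart and Melan A entered as labelled, 1 with D6_MEL and NRAS_MEL averaged, and 0 to 7 with each array left out in turn. With the arrays labelled Liver and Lung and VA_MEF left out, chosen after seeing the data and leaving Kidney as the only organ array, assumed to vary like the lines, it was 2. It stayed at 5 without centring, with the median of probes, 1 probe per gene, genes valued on all arrays or a robust, trended eBayes, and was 4 after quantile normalization. Over all genes, 201 higher and 262 lower became 125 and 129 with D6_MEL and NRAS_MEL averaged, 0 and 0 as labelled, and 53 to 385 and 96 to 601 with each array left out. Srsf10 turned from -0.18 to 0.16 with 1 probe per gene. At 1.5-fold in place of 2-fold, 13 genes in place of 5 were apart between NRAS_MEL and D6_MEL (5 higher and 8 lower in NRAS_MEL). Of all genes, 11.2% were higher and 13% lower at 1.5-fold in that comparison. Between HRAS_MEL and D6_MEL 9 in place of 2 were apart (4 higher and 5 lower), beside 13.1% and 15.1% of all genes. Between NRAS_MEL and HRAS_MEL 10 in place of 4 were apart (4 higher and 6 lower), beside 13.4% and 13.1% of all genes. At 2-fold with 1 probe per gene HRAS_MEL and D6_MEL had 1. The causes of these moves were not tested. No paired analysis was possible because the labels give no replicate numbers. Intensities were not analysed here, so how far weak signal limits a ratio is unknown.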

Other observations

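VA_475, whose class the labels do not give, entered no comparison. It held the highest of the 11 values for 12 of the 52 genes, as did 3T3, and the lowest for 2. The shares of all genes for which these arrays were highest or lowest are not given here. All 9 snRNP values were above 0 in VA_475: Snrpb2, a protein of the U2 particle, stood at 1.02, Snrpg at 0.97, Snrpc at 0.83 and Snrpd2 at 0.82. In splicing factor 3, Sf3b4 stood at 1.10 and Sf3b6, which touches the branch site, at 0.70, while Sf3b1 stood at -0.98. Hnrnpa0, which binds AU-rich RNA, stood at 2.32 on its single probe, against 0.22 in 3T3 and -0.15 or less on the other 9 arrays. Hnrnpul2 had its lowest value there, at -1.47. Over the 51 genes other than Hnrnph1, VA_475 correlated best with 3T3, at a Pearson r of 0.765 across genes, which are not independent.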
